A study of Homo sapiens and Mus musculus with 4 samples.

Results

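In RD, a human embryonal rhabdomyosarcoma cell line, TEAD peaks from chromatin immunoprecipitation and sequencing (ChIP-seq) formed 350 clusters. These are stretches of the genome in which peaks lie close together. Peaks on the same sequence were chained when the next start lay at most 12.5 kb after the previous end, and chains of 5 or more peaks were kept. The members were chosen by the measured positions of the peaks alone. The rule took 2128 of the 22681 RD peaks, or 9.38%, and left 20553 other peaks. The RD peaks came from 1 TEAD library called by the authors against 1 IgG library of the same cells. Mouse YAP-ERMS cells, from YAP-driven tumours under Myf5-Cre or Pax7-CreER, gave 1 TEAD library called against 1 input library. Both RD libraries are from the same line, and the labels name neither the TEAD family member the antibody recognised nor any treatment. With 1 library a group there is no replicate error, so no test between groups of peaks was made. The 95% intervals printed with values cover only counting error and assume independent peaks, which neighbours are not. The score of a peak is the authors' value and is read as 10 times the negative log10 of its p-value. It depends on depth and control, so peaks were compared by score only within a list. For YAP-ERMS, shares based on its own scores are given side by side. The label of the cells could not be checked here, because a peak list holds no expression.

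TEAD proteins are DNA-binding factors that carry little activating capacity of their own and act through partners, among them YAP1 and TAZ, the co-activators that the Hippo kinase pathway restrains. Their DNA element is known from muscle gene promoters, where it is called M-CAT, and most of their binding in other cells lies at enhancers. Stretches with several neighbouring binding regions are one form that large enhancers take, and 12.5 kb is a distance commonly used to join neighbouring enhancers. Positions are hg19. Genes and base sequence at the clusters were not analysed here, because the reference at hand is of another build.

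Many clusters only just met the limit of 5 peaks. Exactly 5 peaks were held by 176 clusters (50.3%, Wilson interval 45.1% to 55.5%), 131 held 6 or 7, 43 held 8 or more and 17 held 10 or more, with a maximum of 17. Just outside the limit were 364 chains of 4 peaks. Their median span was 13.4 kb (12.6 to 14.2 kb) and their median highest score 634 (586 to 697). Clusters of exactly 5 spanned 18.3 kb (16.7 to 19.6 kb) with a highest score of 719.6 (625 to 798). Over all 350 clusters, the median span was 21.4 kb, with quartiles of 15.7 and 28.9 kb and a range of 2.11 to 85.6 kb. The peaks themselves covered a median of 11.3% of a cluster's span, so that most of a typical cluster was not listed as bound.

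The largest cluster, 17 peaks on chromosome 2 at 161199295 to 161284890, held 1 peak in the highest score decile of the list. The highest peak, the fourth from the left, scored 942 and the next, the eighth, 660.4. The median was 171 and the lowest 89.8. The peaks fell into 13 places more than 1 kb apart. A group of 6 peaks lay 25 to 33.6 kb from the cluster's start and a group of 3 lay together at its right end, with scores of 472, 310.1 and 177. Single peaks of 96.9, 171 and 168 lay to the left of the first group.

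Both clusters of 14 peaks held stronger peaks, and arranged them differently. On chromosome 9 at 117860863 to 117929923, the highest score, 2109, belonged to the last peak, and the last 3 peaks, separated by 25 and 1771 bp, scored 224, 927 and 2109. The remaining peaks of that cluster were led by one of 711, and its first peak scored 550.4. On chromosome 8 at 42346393 to 42410297 no peak dominated: peaks of 1011, 983 and 1060.1 stood 3.39, 13.6 and 51.7 kb from its start. One of 712 lay 18.1 kb from it. All remaining peaks of that cluster scored 279 or less.

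On chromosome 4, 3 clusters followed one another with short peak-free breaks. The first, 5 peaks at 169395773 to 169424467, had a highest score of 1108. After 20.7 kb came 13 peaks at 169445169 to 169506066, in which the last peak was the highest with 929. After a further 19.5 kb came 12 peaks at 169525542 to 169587821, in which the first peak was the highest with 942. The highest peaks of the 13-peak and 12-peak clusters thus faced each other across the break. The next highest scores of these clusters were 652 and 743.

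**Figure D1:**
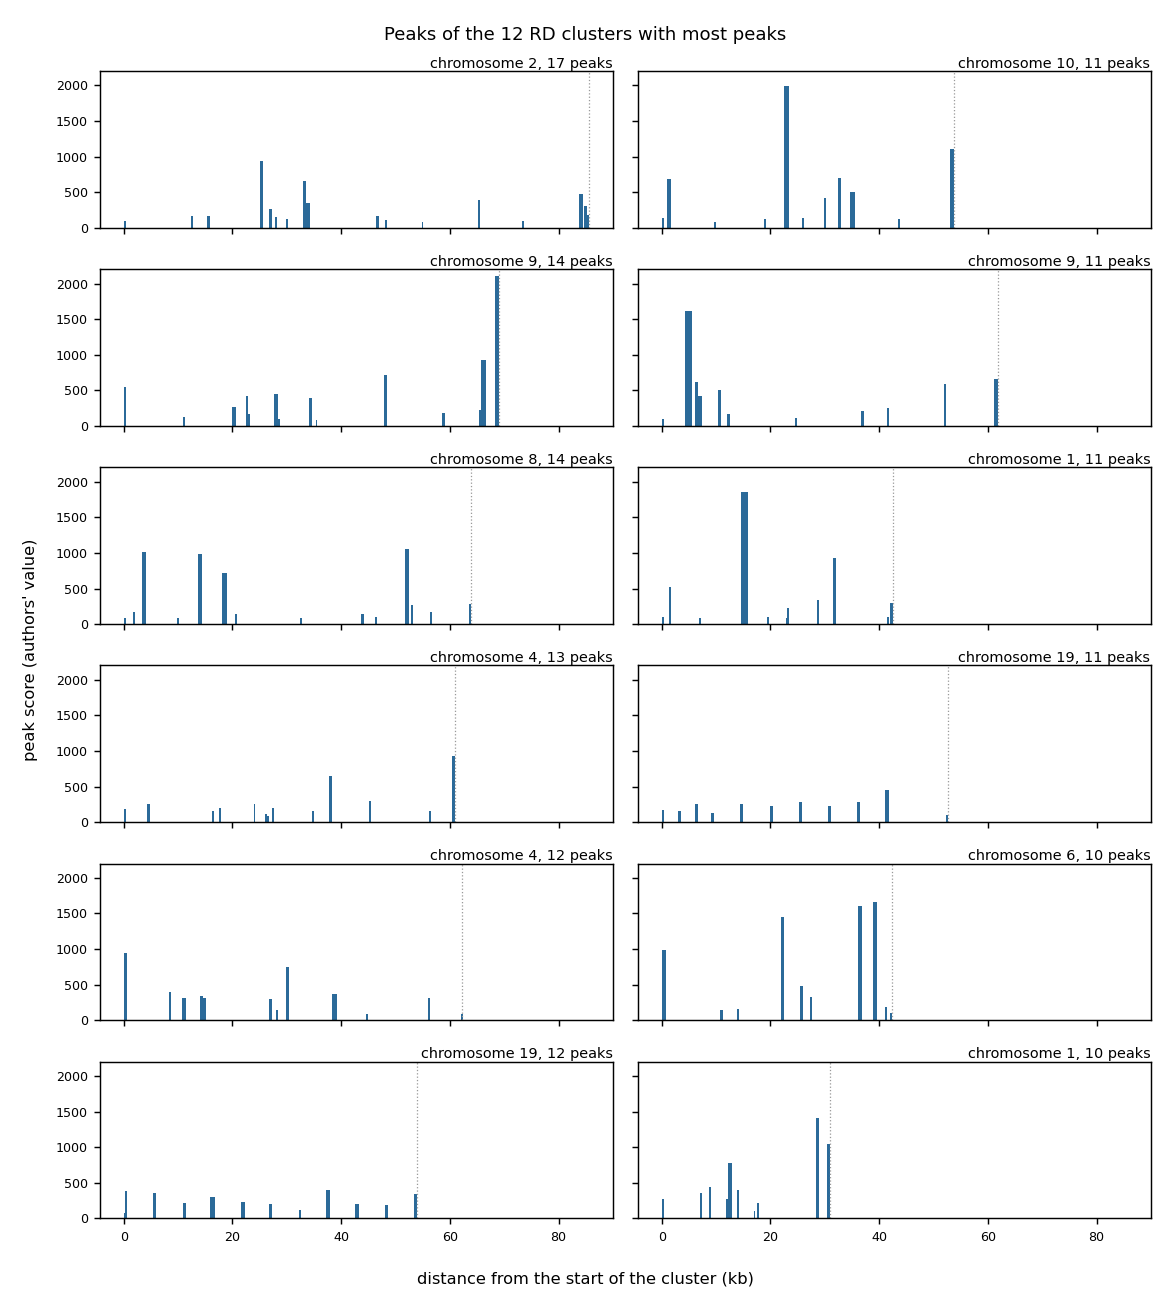
Peaks of the 12 RD clusters with most peaks, drawn as bars at their distance from the start of the cluster (kb), with the peak score on the vertical axis. Very narrow peaks are drawn slightly wider than they are, and the dotted line marks the cluster's end. Clusters on chromosomes 10, 9, 8, 6 and 1 hold at least 1 peak of over 1000. The pair on chromosome 19 holds none above 452, and its 12-peak cluster is evenly spaced throughout.

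The other clusters among the 12 with most peaks ranged from a few strong peaks to none. Chromosome 10 at 95195719 to 95249490 held 11 peaks, with scores of 1995, 1113, 696 and 682 and 5 peaks of 142 or less among the others. Chromosome 9 at 97623193 to 97685131 also held 11, with 1619.8 for the second peak, followed at once by peaks of 623, 419.6 and 502. Chromosome 1 at 235091566 to 235134101 held 11, of which 1 scored 1853, 1 scored 927 and 5 scored 103 or less. Chromosome 6 at 155402011 to 155444357 held 10 and had the highest summed score of the 12 clusters, 7105, from 3 peaks of over 1000 (1444, 1604 and 1660.0) and 1 of 988. Chromosome 1 at 113058130 to 113089140 held 10 within 31.0 kb, with peaks of 1405 and 1051 at its right end and 777 at 12.3 kb from its start.

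One cluster on chromosome 19 had the most even spacing of those measured, and a second on the same chromosome held a run of similar spacing. This was seen in the peak positions first and then measured. At 48407085 to 48461051, 12 peaks fell into 11 places, and the 10 centre-to-centre distances ran from 5.09 to 5.52 kb with a median of 5.38 kb. Their coefficient of variation was 0.0257, the lowest of the 187 clusters with 5 or more places, where the median was 0.555 (0.533 to 0.588) and the second lowest 0.0931. It was the only 1 of those 187 RD clusters in which every distance lay within 10% of the cluster's median. At 50599102 to 50651682, 11 peaks gave first 3 distances of 3.08, 3.06 and 2.98 kb, then 6 of 5.25 to 5.40 kb, and a last one of 11.0 kb. Its median distance, 5.34 kb, was close to that of the first cluster. Over the whole cluster its spacing was not unusually even: the coefficient of variation was 0.443, and 47 of the 187 clusters had a lower one.

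The same pair had no dominant peak. The 12 peaks of the first scored 80.4, 387, 355, 214, 299, 238, 198, 123, 394, 199, 187 and 337 from left to right. The highest peak held 13.1% of the summed score, the lowest share of the 350 clusters. The 11 peaks of the second scored between 98.3 and 452, and the highest held 17.7%. Only 4 clusters had at most 20% of their summed score in 1 peak, and the others were the 17-peak cluster on chromosome 2 (19.8%) and 8 peaks on chromosome 2 at 227552046 to 227570818 (19.6%). The coefficient of variation of scores was 0.409 and 0.414 in the pair, against a median of 0.841 (0.787 to 0.920) over the 187 clusters, and 9 and 10 of these had a lower one, down to 0.249. In a cluster of more peaks, the highest can hold a smaller share. The first cluster of the pair also held 3 unusually wide peaks. Whether the sequence there is repeated was not analysed.

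**Figure D2:**
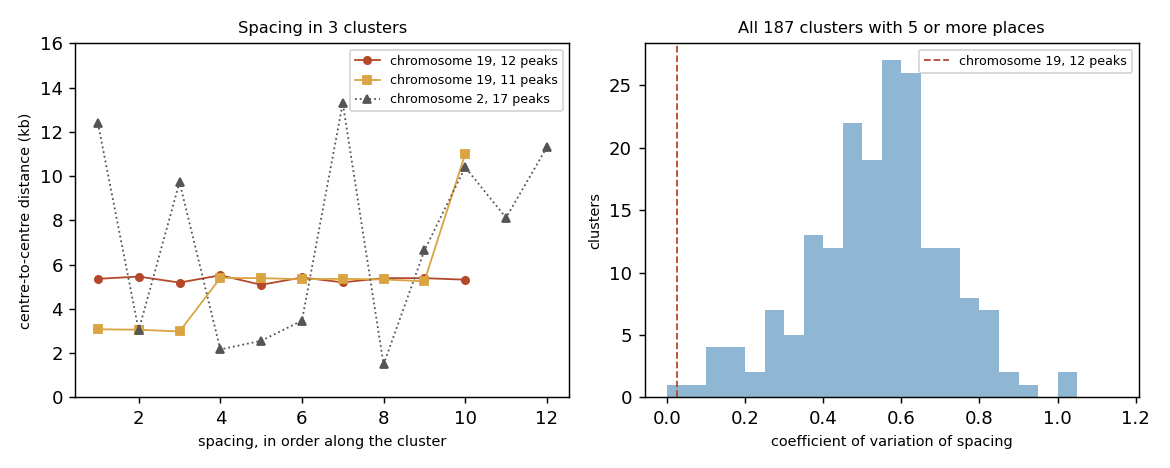
Left, centre-to-centre distances (kb) in order along 3 clusters, with peaks within 1 kb joined into 1 place. The 12-peak cluster on chromosome 19 stays between 5.09 and 5.52 kb, the 11-peak one goes from 2.98 to 3.08 kb to 5.25 to 5.40 kb, and the 17-peak cluster on chromosome 2 ranges from 1.49 to 13.3 kb. Right, the coefficient of variation of these distances in the 187 clusters with 5 or more places, with the 12-peak cluster dashed at 0.0257.

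In a typical cluster 1 peak held a large part of the summed score, which is not an amount of binding. No share was computed for peaks drawn from the whole list, so this is not shown to be particular to clusters. The highest peak held a median of 40.0% of the summed score (38.3% to 41.4%), from 13.1% to 77.6%, and over 50% in 88 clusters (25.1%, 20.9% to 29.9%). The ratio of the highest to the lowest score in a cluster had a median of 8.21 (7.38 to 9.01). The standard deviation of log2 scores within a cluster had a median of 1.18. The standard deviation was 1.15 over all RD peaks and 1.25 over all members. A median over small clusters and a value over a whole list are unlike measures, so these are given only as a description. Between neighbours within a cluster, Spearman's rho of the scores was 0.00 over 1778 pairs, -0.01 over the 470 pairs at most 1 kb apart and 0.01 over 15336 pairs of peaks more than 12.5 kb apart. The pairs come from 1 library and overlap, and rho is given as a description.

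The strongest peak of a cluster was an end peak about as often as members were in general. It was the first or last peak in 117 clusters (33.4%, 28.7% to 38.5%), and end peaks made up 32.9% of all members. The latter share counts peaks, so clusters with more peaks weigh more in it than in the former. The second highest peak stood next to the highest in 120 clusters (34.3%, 29.5% to 39.4%), where 34.8% of the remaining peaks did on average. End peaks had a median score of 224 (203 to 243) and inner peaks 214 (200.3 to 228), and their median widths were 374 and 388 bp, with overlapping intervals for both measures.

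The 6 clusters with the highest single scores each held 5 to 8 peaks. Such sizes were common, with quartiles of 5 and 7 peaks over all 350 clusters. Chromosome 1 at 118642434 to 118690598 held the highest scoring peak of the RD list, 3180.2, as the fifth of 7 peaks. The others there scored 83.3, 284, 695 and 353 before it and 216 and 495 after it, and its nearest neighbours stood 8417 and 12216 bp away. The next 4 each had a peak of 3100.0, a score that 12 RD peaks share exactly and 3 exceed. Whether this shared value is a limit of the scoring was not tested, and the shares and sums below take it as listed. On chromosome 9 at 114792351 to 114837106 that peak had a neighbour of 2276 at 3839 bp, and the 6 peaks had the highest summed score of the 350 clusters, 7233. On chromosome 2 at 235869020 to 235905699 it stood among 8 peaks with 2 more of over 1000, scoring 1038 and 1082. On chromosome 2 at 227338982 to 227354943 it held 62.7% of the score of 7 peaks, and on chromosome 22 at 30578485 to 30603549 it held 66.1% of the score of 5. The sixth, on chromosome 2 at 5765949 to 5772124, packed 5 peaks into 6.18 kb around a peak of 2992. Peaks of 3100 or more numbered 15 in the list. Of these, 5 were in clusters (33.3%, 15.2% to 58.3%), against 9.38% of all RD peaks. The share rests on few peaks, 12 of them tied at 3100.0.

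Some peaks of a cluster lay very close to a neighbour. The median gap inside clusters was 3129 bp (2846 to 3403 bp), but 312 of the 1778 gaps (17.5%) were of at most 500 bp, the upper end of the sheared fragment size, and 125 were of at most 100 bp. Peaks on both sides of such a gap may share fragments. The shortest cluster lay on chromosome 2 at 189277787 to 189279893, where 5 peaks with scores of 94.6, 206, 158, 114 and 114 filled 76.3% of 2.11 kb. On chromosome 7 at 80348498 to 80354546, peaks of 96.8, 1005, 116 and 2152 were separated by 30, 51 and 45 bp, and a peak of 236 lay apart on the left. On chromosome 12 at 65918301 to 65931492, 6 peaks formed 3 pairs with inner gaps of 52, 181 and 8 bp, and 4 peaks scored 772 to 1016. The remaining 3 of the 6 clusters with the smallest median gaps, which also held gaps of over 9 kb and whose peaks covered 11.5% to 16.2% of their span, lay on chromosome 1 (183196485 to 183213994, highest score 328), on chromosome 5 (42842903 to 42856376, highest score 523) and on chromosome 15 (39420285 to 39432867, highest score 796). With peaks within 1 kb counted as 1 place, 187 clusters (53.4%, 48.2% to 58.6%) still had 5 or more places, 18 had at most 2, and the most in 1 cluster was 13.

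The rule did not use scores. Scores over 1000 were reached by 5.47% of all RD peaks, by 191 members (8.98%, 7.83% to 10.3%) and by 1050 other peaks (5.11%, 4.82% to 5.42%). The median score was 217 in members (206 to 230.1) and 187 in other peaks (184 to 189.6). The excess was concentrated at the top of the list. Members made up between 7.58% and 10.3% of each of the lowest 9 score deciles and 14.2% (12.9% to 15.7%) of the highest, against 9.38% overall. Of the 350 clusters, 204 had no peak over 1000, 109 had 1, 29 had 2 and 8 had 3. Even among the 43 clusters of 8 or more peaks, 18 had no peak over 1000.

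The share of high peaks grew with chain size well below the limit of 5. It was 3.96% (3.61% to 4.34%) for peaks with no neighbour within 12.5 kb, 5.81% in pairs, 6.91% in chains of 3, 8.04% in chains of 4 and 8.30% (6.65% to 10.3%) in clusters of exactly 5. It was 9.41% in clusters of 6, 10.2% in those of 7 and 10.9% (7.44% to 15.7%) in those of 8 or 9. Clusters of 10 or more had 6.63% (3.92% to 11.0%), and its interval overlaps that of each smaller cluster size. Over chains of any size, 7.49% had a peak over 1000. The share was 28.0% for chains of 4, 32.4% for clusters of 5 and 41.7% (36.7% to 46.9%) for all clusters, and longer chains have more peaks that could pass.

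**Figure D3:**
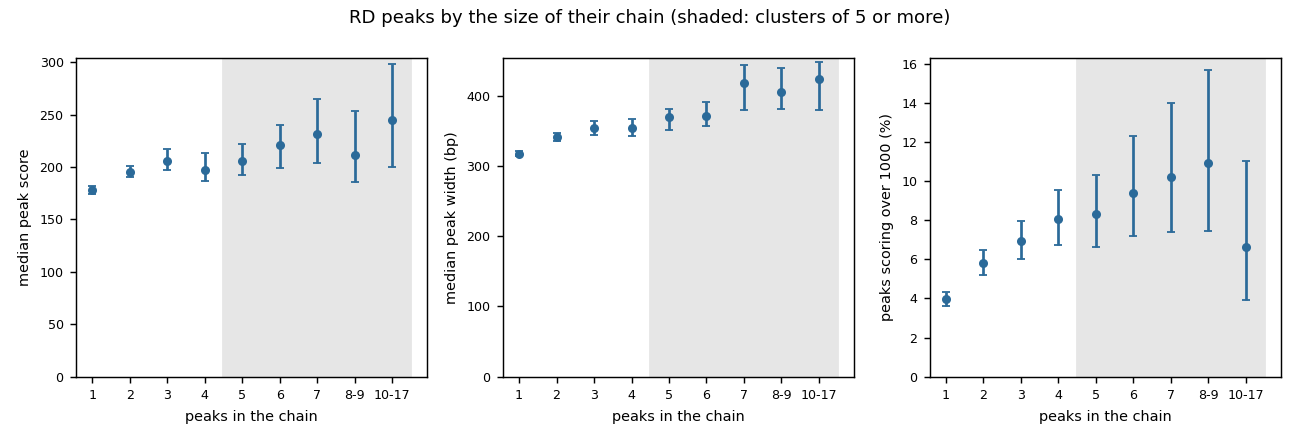
Median peak score, median peak width (bp) and share of peaks scoring over 1000 (%) for RD peaks in chains of 1 to 17 peaks, with 95% intervals for counting error. Clusters are shaded. The share over 1000 goes from 3.96% for single peaks to 8.30% in clusters of 5 and 10.9% in clusters of 8 or 9, and is 6.63% in clusters of 10 or more.

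Members were wider, also at matched score. The median width was 382 bp (375 to 393 bp) in members and 330.0 bp (327 to 333 bp) in other peaks. Within score quintiles the member median was 1.05 to 1.11 times that of other peaks, from 224 against 203 bp in the lowest to 635 against 571 bp in the highest. Set against peaks of like score, members were 0.09 log2 units wider than the list (0.08 to 0.11) and other peaks stood at -0.01. The value was 0.06 in clusters of 5, 0.16 in clusters of 7 and 0.18 (0.10 to 0.27) in clusters of 10 or more. Within chromosomes, members had the higher median width at matched score on 19 of the 21 chromosomes with 3 or more clusters, and the higher median score on 18. Chromosome 6 (177 against 204), chromosome 16 (131 against 181) and chromosome 21 (104 against 190.4) had the lower median score in members.

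**Figure D4:**
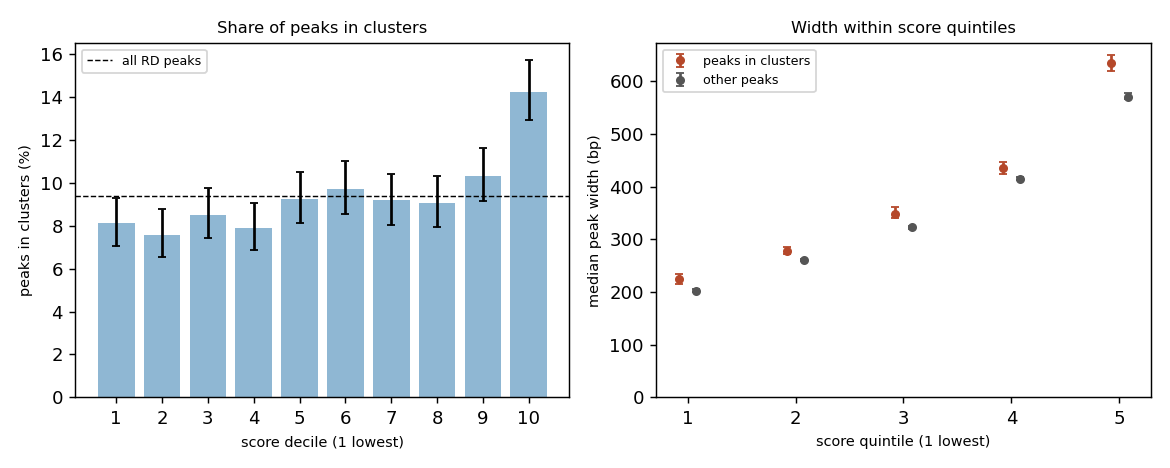
Left, share of RD peaks that lie in clusters (%) by score decile, with Wilson 95% intervals and the share over all RD peaks, 9.38%, dashed. The highest decile stands at 14.2%. Right, median width (bp) of peaks in clusters and of other peaks within score quintiles, where members are wider in all 5.

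A few clusters were made of unusually wide peaks. Peaks whose width was more than 2 times the median for their score were 0.701% of the list, 51 of the members (2.40%, 1.83% to 3.14%) and 108 of the other peaks (0.525%, 0.435% to 0.634%). Of those 51, 40 lay in 8 clusters, and without these 8 the share in members was 0.531%, as leaving them out requires. Chromosome 4 at 49093173 to 49158759 was the extreme case: all 9 peaks were of this kind, the widest measured 22.0 kb, and they covered 70.7% of 65.6 kb. On chromosome 21 at 10832018 to 10859956, 6 of 7 peaks were wide and the highest score was 161. A pair of clusters on chromosome 1, at 145209861 to 145248976 and 145282402 to 145290350, held 3 wide peaks each. The unplaced sequence Un_gl000216 held clusters of 7 and 5 peaks, and Un_gl000225 one of 5; the 17 peaks of these 3 clusters scored at most 302, and all peaks on both sequences were members. The eighth was the evenly spaced 12-peak cluster on chromosome 19. Sequence and read mapping at these 8 clusters were not analysed, and whether their wide peaks mark TEAD binding was not tested.

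Clusters were uneven along the genome. Chromosome 2 held 68 of the 350 clusters (19.4%) and 12.5% of all peaks, and 14.6% of its peaks were members (13.3% to 15.9%), the highest share of the 23 chromosomes compared. Without chromosome 2 the share over the list was 8.64% (8.26% to 9.04%). Chromosome 12 followed with 11.8%, chromosome 9 with 11.5% and chromosome 10 with 11.0%. At the other end were chromosome 18 with 4.65%, chromosome 16 with 4.07% (2.65% to 6.20%) and chromosome 13 with 1.99% (0.854% to 4.58%). The only cluster of chromosome 13 lay at 22148064 to 22162782, with 5 peaks and a highest score of 1249. None of the 280 peaks on X was in a cluster. Taking peaks as independent, the upper limit is 1.07% by the limit of 3 counts and 1.35% by the Wilson interval. Members come in whole clusters of at least 5 peaks, so these limits do not bound the share on X. The intervals of the other chromosomes have the same weakness. The rule chains peaks by distance, so these shares are not independent of peak density and are given as a description.

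**Figure D5:**
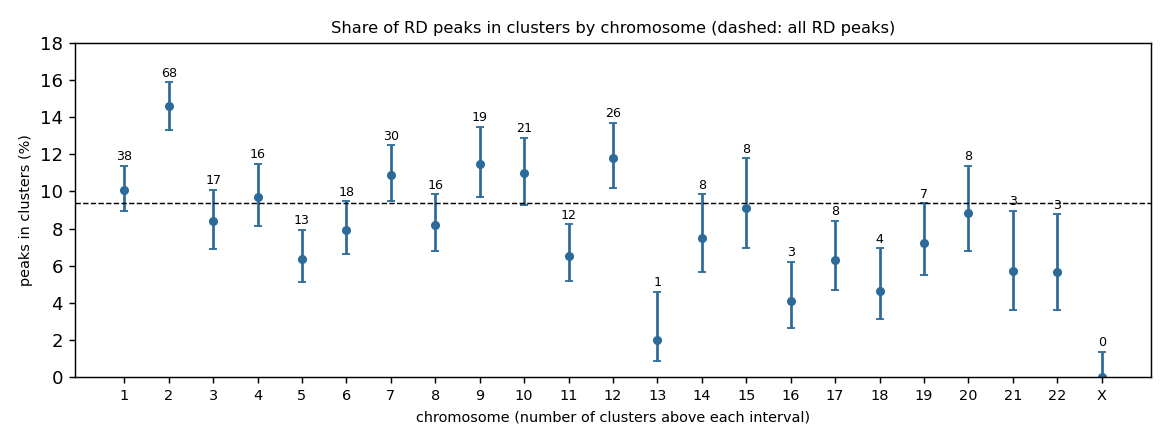
Share of RD peaks in clusters (%) on each chromosome, with Wilson 95% intervals, the number of clusters printed above each interval and the share over all RD peaks dashed. The intervals treat peaks as independent, although members come in whole clusters. Chromosome 2 stands highest at 14.6% with 68 clusters, chromosome 13 at 1.99% with 1 and X at 0 of 280 peaks.

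By number of clusters, the far part of chromosome 2 led. Beyond 150 Mb lay 45 of its 68 clusters (66.2%, 54.3% to 76.3%) and 50.8% (48.9% to 52.6%) of its peaks. The limit of 150 Mb was not part of the plan, and these shares too are not independent of peak density. Of 311 bins of 10 Mb with a peak, 172 held a cluster and 8 held 5 or more, and 4 of these 8 were on chromosome 2. The bin from 180 to 190 Mb held 8 clusters with 27.0% of its 163 peaks, and those from 170 to 180 and from 230 to 240 Mb held 7 each. On chromosome 9, the bin from 110 to 120 Mb held 6 clusters with 25.1% of its 187 peaks, among them the 14-peak cluster and the one with a peak of 3100.0. By the share of peaks in clusters, the bin from 160 to 170 Mb on chromosome 4 was highest, with 42.9% of 70 peaks in 3 clusters, followed by chromosome 12 from 80 to 90 Mb with 29.3% of 92. Bins with 5 clusters lay on chromosome 7 from 80 to 90 Mb, chromosome 9 from 80 to 90 Mb and chromosome 10 from 70 to 80 Mb.

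Clusters also lay in neighbourhoods rich in peaks. The counts below reach beyond the distance that the rule used, but they are of the same peak positions. They are therefore not independent of the rule or of peak density, and are given as a description. Within 500 kb on both sides, not counting its own peaks, a cluster had a median of 18 other peaks (16 to 19), against 11 around all smaller chains and 16 (14 to 17) around chains of 4. The median was higher for clusters than for smaller chains on 18 of the 21 chromosomes with 3 or more clusters. The nearest other cluster was a median of 1279 kb away (979 to 1719 kb), and 47 clusters (13.4%) had another within 50 kb. The closest pair lay 13.6 kb apart on chromosome 10. Its left cluster, at 104020954 to 104046500, had a highest score of 505, and its right one, at 104060078 to 104094078, 2524. On chromosome 2, clusters of 7 and 6 peaks at 175803799 to 175839411 and 175853961 to 175870608 were 14.5 kb apart, with highest scores of 1042 and 304. On chromosome 6, the 10-peak cluster named above was followed after 19.0 kb by 6 peaks at 155463390 to 155484122 with a highest score of 493. Near the distance limit, the largest gap inside a cluster was 12487 bp and the smallest gap to a peak outside 12605 bp, and 9 clusters had a peak outside within 13 kb.

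Mouse YAP-ERMS clusters, formed by the same rule, are given side by side, since species, control, peak width and list length differ. They numbered 1267, with 8276 of 47033 peaks (17.6%), where the RD list had 22681 peaks. At a fixed chaining distance a longer list can give more and longer clusters, and the effect of list length was not tested. The median RD cluster spanned 21.4 kb and the median YAP-ERMS cluster 30.7 kb (29.8 to 31.6 kb), and 11.3% and 26.3% of the span was covered. The highest peak held 40.0% of the summed score in RD and 39.0% (38.2% to 39.8%) in YAP-ERMS. It was an end peak in 33.4% and 31.5% (29.0% to 34.1%) of clusters. In YAP-ERMS, 10.9% of members (10.2% to 11.6%) and 6.63% of other peaks (6.39% to 6.88%) scored over 1000. A score of 1000 need not mean the same in both lists. Gaps of at most 500 bp were 17.5% of those inside RD clusters and 12.5% (11.7% to 13.3%) in YAP-ERMS. The most even spacing in YAP-ERMS had a coefficient of variation of 0.0498, and 1 of 853 clusters had every distance within 10% of its median. No difference between the cell types was tested.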

How the data were processed

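Each cell line has 1 deposited peak list, in which the authors give every peak a score. The submitters' processing notes name Bowtie2 and the builds hg19 and mm9, and peak names have the form MACS writes. The lowest RD score is 80.0. Not given in the sources used here: versions, read filters, duplicate handling and depth. Per the labels' protocols, chromatin was sheared to average fragments of 200 to 500 bp.

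Chaining and all summaries used Python 3.11.15 (scipy 1.17.1, numpy 2.4.6, pandas 2.3.3). The chaining was tested on simulated data with planted clusters, of which 90 of 90 were found again. Shares have Wilson and medians order-statistic 95% intervals. Width at matched score is log2 width minus the median of the same of 50 score bins. Positions are 1-based. Clusters named by rule were the 12 with most peaks, the 6 with the highest score and the 6 with the smallest median gap; any further cluster was picked after seeing its values. The members and lists were chosen with earlier results of these data known. Planned comparisons with genes, gene lists and sequence motifs were not run, since they need hg19 and mm9 references, which were not used here. For each result, 6 alternatives were planned and 2 added.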

Additional observations from a re-analysis of the deposited data

How the results depend on the processing

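The 350 clusters and 2128 member peaks depended on the rule, as its construction requires: with gaps of at most 5 kb there were 94 clusters with 521 peaks, with 25 kb 685 with 4817, with 8 or more peaks per cluster 43 with 416, with scores of 160 or more 93 with 531, and with peaks within 1 kb joined 187 with 1098. The median score of members went from 217 to 358 at scores of 160 or more and 249 with peaks joined; that of other peaks went from 187 to 329, 196 and, with 25 kb, 183. The median width of members went from 382 to 412 bp with 8 or more peaks, 497 bp at scores of 160 or more and 426 bp with peaks joined. That of other peaks went from 330.0 to 430.0 bp at scores of 160 or more, 347 bp with peaks joined, 325 bp with 25 kb and 325 bp without chromosome 2. In all 8 alternatives members had the higher median score, median width, width at matched score and share over 1000. The difference in median score ran from 20.2 to 53.2 and that in width at matched score from 0.09 to 0.18 log2 units. Leaving out chromosome 2, or the 8 clusters with 3 or more wide peaks, was added after the data were seen. The share of clusters whose highest peak was an end peak was 39.4% with gaps of at most 5 kb and 16.3% with 8 or more peaks, where fewer peaks are end peaks. No paired analysis was possible because each group has 1 library. Without read depth, a missing peak cannot be read as an unbound site.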
